A study of Mus musculus with 18 samples.

Results

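The genes of the cytosolic ribosome were followed in mouse splenic B cells with or without the transcription factor gene *Zbtb24*, before and during culture with lipopolysaccharide (LPS), the bacterial product that drives B cells to grow, divide and become plasma cells. Members were taken by name from the 16545 rows of the expression table: protein-coding mouse genes called *Rpl* or *Rps* with a number, the stalk genes *Rplp0*, *Rplp1* and *Rplp2*, and *Rpsa*, without the *Rps6k* kinases and without names marked as pseudogenes. The rule gave 89 genes. Of these, 46 encode canonical proteins of the large (60S) subunit, 31 encode canonical proteins of the small (40S) subunit, and 12 carry a ribosomal protein name without being among the canonical 77. The 12 are the paralogues and copies *Rpl36al*, *Rpl22l1*, *Rps27l*, *Rpl7l1*, *Rpl37rt*, *Rps27rt*, *Rpl39l*, *Rpl32l*, *Rpl3l*, *Rps23rg1* and *Rpl10l*, and *Rps19bp1*, whose product binds Rps19 and is not a ribosomal protein. *Fau*, which encodes a ribosomal protein fused to a ubiquitin-like part, does not carry such a name and was kept among the other mRNAs described further on.

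Control (CON) mice were littermates with Zbtb24 +/+, and Zbtb24 B-CKO mice carried Zbtb24 loxp/loxp, in which a Cre active in B cells removes exon 2 of *Zbtb24*. Both genotypes were described as carrying 1 copy of the Cre. Splenic B cells were sorted and taken uncultured (D0) or after 1 day (D1) or 2 days (D2) with LPS, which gives 6 groups of 3 libraries, with 1 mouse per replicate. The sources used here give neither the age nor the sex of these mice, and they do not say whether the libraries with the same number at D0, D1 and D2 came from the same mouse. Values are FPKM, in which fragments are divided by transcript length and by library size, so levels can be compared between genes per length.

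The libraries were checked first. *Zbtb24* stood at 45.4 ± 7.2 FPKM (SD, n = 3) in control cells and 12.5 ± 1.9 FPKM in B-CKO cells at D0, and every B-CKO library was below every control library on each day, although no day passed the test (limma adjusted p = 0.12, 0.059 and 0.27). All 7 B cell markers examined were at 1 FPKM or more in every group. Their summed level had medians of 5006, 2524 and 2740 FPKM at D0, D1 and D2 in control cells and of 4282, 2211 and 2587 FPKM in B-CKO cells, and was thus lower in every library at D1 than in any at D0, over the same step in which most ribosomal protein genes rose. The summed markers of T cells (6 genes) had medians of 5.13 and 6.29 FPKM at D0 and of 1.06 and 1.59 FPKM at D1 in control and B-CKO cells. The summed markers of T cells and NK cells (3 genes) did not exceed 8.57 and 2.35 FPKM in any library, those of myeloid cells (7 genes) had group medians between 6.73 and 12.5 FPKM, and those of platelets (2 genes) did not exceed 0.21 FPKM. Summed erythroid markers ranged from 11.7 to 71.1 FPKM at D0, with the highest value in B-CKO replicate 3. The plasma cell markers *Sdc1*, *Prdm1*, *Xbp1*, *Jchain* and *Mzb1* together had group medians of 303 and 334 FPKM at D0 in control and B-CKO cells and of 789 and 757 FPKM at D2. Their part in the results below was not tested. In bulk samples such as these, fewer cells of a type and less RNA per cell cannot be told apart.

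The ribosome is built from 2 subunits. The 40S subunit reads the mRNA, and the 60S subunit joins amino acids and lets the new chain out through an exit tunnel. Nearly all of its proteins are needed in equal numbers, and their mRNAs begin with a run of pyrimidines (C and T in the DNA), the terminal oligopyrimidine or TOP element, through which the kinase mTORC1 and the RNA-binding protein LARP1 adjust their translation when a cell starts or stops growing. Resting B cells are small and make few ribosomes, and activation with LPS is known to set off ribosome synthesis.

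The start of several members is shown here because the TOP run lies there and because *Rps27* and *Rps27rt* share much of it. Each window holds 10 bases before and 20 bases after the annotated transcription start, from RefSeq on GRCm38.p6 and written on the gene's own strand, and capitals mark the part of a C and T run of at least 8 bases that falls in the window. *Rps6* (chr4:86857348-86857377, minus strand), *Rpl15* (chr14:18270967-18270996, minus strand), *Rps24* (chr14:24490668-24490697, plus strand), *Rpl22l1* (chr3:28805498-28805527, plus strand) and *Rps27* (chr3:90213629-90213658, minus strand) have such a run, while the windows of *Rps2* (chr17:24720053-24720082, plus strand) and *Rps27rt* (chr9:114982720-114982749, minus strand) have none.
Rps6: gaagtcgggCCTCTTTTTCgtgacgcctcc
Rpl15: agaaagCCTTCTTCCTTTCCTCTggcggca
Rps24: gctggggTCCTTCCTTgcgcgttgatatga
Rpl22l1: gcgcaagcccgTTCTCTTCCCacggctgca
Rps27: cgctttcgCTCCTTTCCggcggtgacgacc
Rps2: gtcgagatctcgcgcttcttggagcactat
Rps27rt: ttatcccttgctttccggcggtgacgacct
The start sequences of *Rps27* and *Rps27rt* share an unbroken run of 38 bases. Over the longest coding transcript of each gene in GENCODE, 63.1% of the 50-base words of *Rps27* also stood in *Rps27rt*, and 91.1% of those of *Rps27rt* stood in *Rps27*, so fragments of these genes could be divided between them during counting.

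Of the 89 members, 69 had a promoter entry in the RefSeq table. Members without an entry included *Rplp1*, *Rpl23a*, *Rpl32*, *Rpl8*, *Rpl17*, *Rps14*, *Rpl3*, *Rpl7*, *Rps27a*, *Rpl30*, *Rps29*, *Rpl29*, *Rpl36*, *Rpl21* and *Rps20*. A C and T run of at least 8 bases within 20 bases of an annotated start was found in 30 of the 57 canonical members with an entry (52.6%), against 23.7% of all 27025 genes in the table. The ETS core CCGGAAG, the sequence recognised by ETS-family factors such as GABP, stood on either strand of the 300-base promoter window (250 bases before and 50 after the start) in 42.1% of canonical members and in 9.93% of all genes. The E-box CACGTG, bound by Myc with Max, stood in 10.5% of canonical members and in 8.09% of all genes, and the YY1 core AAGATGGC stood in 8.77% and 3.19%. A match of letters is a description and not a binding site.

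The ribosomal protein genes were already among the most abundant mRNAs of resting B cells. At D0 they took 21.2%, 21.2% and 21.6% of summed FPKM in the control libraries. At D1 the share was 24.4%, 24.7% and 23.9%, and at D2 it was 25.5%, 24.5% and 25.6%. Every control library at D1 and at D2 was above every control library at D0. In B-CKO cells the share was 21.6%, 21.8% and 23.1% at D0, 24.3%, 24.9% and 24.8% at D1, and 25.8%, 24.5% and 27.4% at D2. The B-CKO libraries at D0 were all above the control libraries at D0, with means of 22.2% and 21.3%, and the genotypes overlapped at D1 and D2. The 60S genes took 11.8% to 12.1% in the 3 control libraries at D0 and 13.7% to 14.2% at D1, and the 40S genes took 9.33 ± 0.035% and 10.1 ± 0.20% (SD, n = 3).

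**Figure D1:**
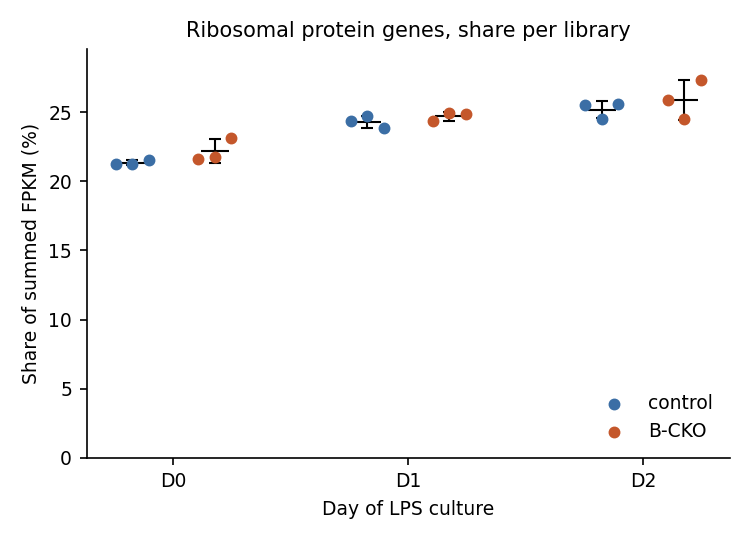
Share of summed FPKM taken by the 89 ribosomal protein genes in each library (y axis, percent) by day of LPS culture (x axis), in control (blue) and B-CKO (orange) cells. Points are libraries and bars are the mean ± SD of 3; control libraries lie between 21.2% and 21.6% at D0 and between 24.5% and 25.6% at D2.

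The canonical genes were not expressed at equal levels. In control cells at D0 the group means ran from 128 FPKM for *Rps15a* to 3289 FPKM for *Rps27*, with a median of 1233 FPKM, a 25.8-fold range. At D2 the lowest was again *Rps15a* at 133 FPKM, the highest was *Rplp1* at 3808 FPKM, and the median was 1694 FPKM. Over all 18 libraries the highest means belonged to *Rplp1*, *Rps2*, *Rpl41*, *Rpl13a* and *Rps12*, and *Rplp1* and *Rps2* overlapped between libraries on each day after D0. Many of these genes have near-identical processed pseudogenes: in 28 of the 77 canonical genes at least 50% of the 50-base words of the transcript also stood in another annotated gene, while in 5 of them at least 10% stood in another gene of this table. Levels of single genes could therefore depend on how such fragments were assigned.

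The first question was how ribosomal protein mRNAs changed when control B cells met LPS. Between D0 and D1 most of them rose. Of 88 members tested, 56 were higher and 1 was lower at D1 (limma on log2(FPKM + 1), Benjamini-Hochberg adjustment over all 15531 genes tested), where 26.7% of all genes tested were higher and 30.7% were lower. The median log2 change over the 77 canonical genes was 0.32 and that over all genes tested was -0.02. Of the 46 60S genes 36 were higher and none lower (median 0.40), and of the 31 40S genes 16 were higher and 1 lower (median 0.23), and the difference between the subunits was not tested. These calls depended on the scale. When every library was scaled to the same sum, as TPM, 37 canonical genes were higher and 5 were lower with a median of 0.15, in place of 52 and 1, while the median change of all genes averaging 1 FPKM or more moved from 0.02 to -0.13.

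The largest rise of a canonical gene was that of *Rps2*, a 40S protein at the entry of the mRNA channel. Its control libraries held 1461, 1501 and 1506 FPKM at D0 and 3458, 3463 and 3670 FPKM at D1, so the groups lay far apart. The log2 change was 1.24 ± 0.07 (SE, adjusted p = 2.7e-05). *Rpl15*, a 60S core protein, had 356, 371 and 382 FPKM at D0 and 660, 693 and 651 FPKM at D1, a log2 change of 0.85 ± 0.06 (adjusted p = 5e-05). *Rpl7a* and *Rpl14*, of the 60S subunit, rose by 0.94 ± 0.07 and 0.82 ± 0.06. *Rpl41*, the smallest ribosomal protein, rose by 0.86 ± 0.08, and *Rps12*, a 40S protein, by 0.81 ± 0.08.

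One canonical gene moved the other way. *Rps27*, a zinc finger protein of the 40S subunit, had the highest mean of all members at D0, with 3455, 3385 and 3025 FPKM in the control libraries. At D1 the same group held 1719, 1740 and 1494 FPKM, about 0.502 of the D0 mean, and no library overlapped. The log2 change was -0.99 ± 0.10 (adjusted p = 0.00026). *Rps27rt*, which shares most of its sequence, was listed at 0, 15.5 and 16.1 FPKM at D0 and at 0 in all 3 control libraries at D1, so the sum of both genes was 3299 ± 225 FPKM at D0 and 1651 ± 137 FPKM at D1. The fall was therefore also present in the sum.

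*Rps27l*, the paralogue of *Rps27* and a known target of p53, showed the largest rise of any member. It held 30.8, 26.0 and 23.0 FPKM at D0 and 166, 171 and 153 FPKM at D1 in control cells, a log2 change of 2.58 ± 0.11 (adjusted p = 1.1e-05). Its level relative to *Rps27* in the same library was 0.0076 to 0.0089 at D0 and 0.0963 to 0.102 at D1. *Rps27* thus remained the more abundant of the pair in every library. Of the *Rps27l* transcript's 50-base words 13.7% stood in other annotated genes, and none stood in another gene of the table.

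The other genes with a defined role moved by smaller amounts. The stalk genes, whose proteins recruit the translation factors that hydrolyse GTP, all rose: *Rplp0* by 0.71 ± 0.07, *Rplp1* by 0.65 ± 0.08 and *Rplp2* by 0.38 ± 0.08. *Rpl5* and *Rpl11*, which carry the 5S rRNA and can bind Mdm2 when assembly fails, rose by 0.28 ± 0.06 and 0.61 ± 0.07. *Rps6*, the substrate of S6 kinase, had 1074, 1059 and 1150 FPKM at D0 and 1371, 1373 and 1341 FPKM at D1 and rose by 0.32 ± 0.06. *Rpl10*, which joins the 60S subunit late, rose by 0.59 ± 0.08, *Rpl3*, near the peptidyl transferase centre, by 0.64 ± 0.09, and *Rps27a*, made as a fusion with ubiquitin, by 0.63 ± 0.07. *Rpsa* rose by 0.52 ± 0.06, *Rps26* by 0.78 ± 0.07, and the X-linked *Rps4x* and *Rpl36a* by 0.28 ± 0.06 and 0.61 ± 0.07.

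Several members did not pass the test at D1. *Rps19*, which is mutated in Diamond-Blackfan anaemia, had a log2 change of 0.10 ± 0.08, which became -0.06 under the TPM scale. *Rpl39*, of the exit tunnel, had a change of 0.18 ± 0.08 (adjusted p = 0.096). *Rpl13a*, among the most abundant members throughout, had a change of -0.03 ± 0.09. *Rps24* had values at D1 all below those at D0, with a change of -0.10 ± 0.07 (adjusted p = 0.28), and was lower on the TPM scale (adjusted p = 0.014).

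Among the remaining names, *Rpl7l1*, a paralogue of *Rpl7*, rose by 1.38 ± 0.09 and *Rps19bp1* by 1.56 ± 0.12. *Rpl36al*, an autosomal copy of *Rpl36a*, rose by 0.84 ± 0.06. *Rpl37rt* lay between 25.8 and 52.5 FPKM in all 18 libraries and did not pass the test at D1 (-0.04 ± 0.26). *Rps27rt* was listed at 0 in 12 libraries and otherwise between 13.1 and 26.3 FPKM. *Rpl39l*, *Rpl32l*, *Rpl3l*, *Rps23rg1* and *Rpl10l* had means under 1 FPKM, and their highest values in any library were 0.77, 0.36, 0.17, 0.05 and 0.06 FPKM. *Rps23rg1* was at 0 in all control libraries at D0 and D1 and did not enter that comparison.

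**Figure D2:**
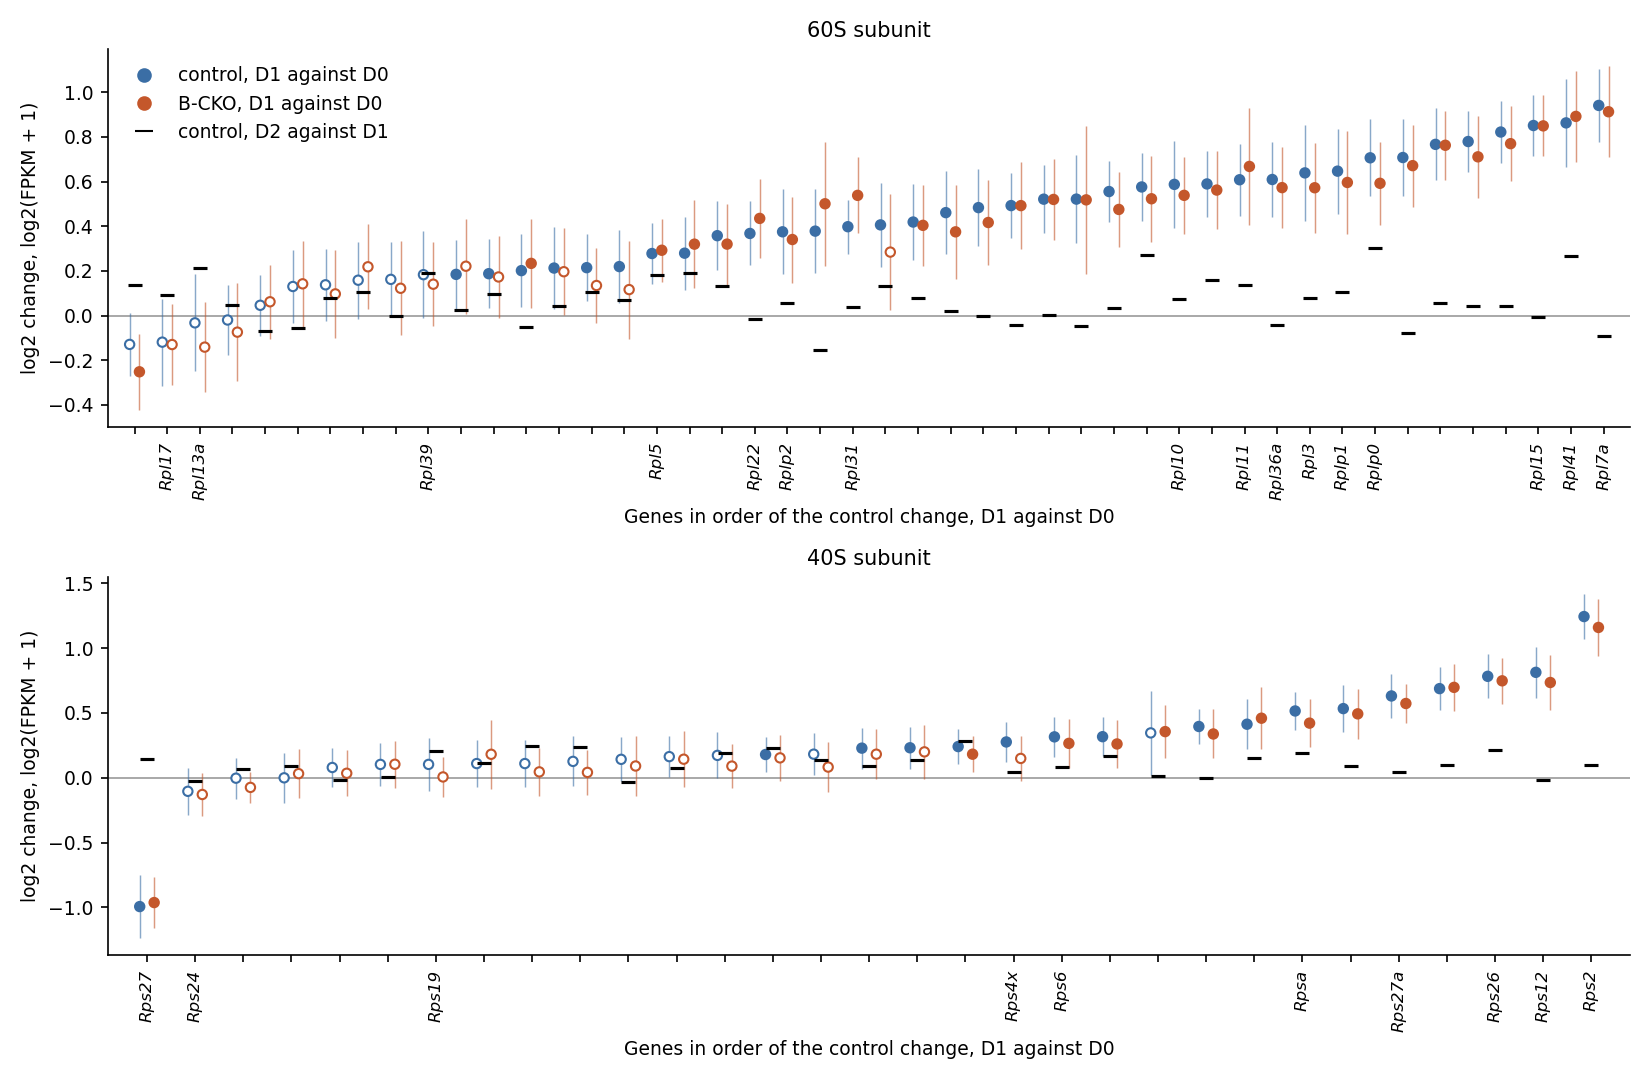
Log2 change between D1 and D0 for each canonical gene of the 60S (top) and 40S (bottom) subunit, with 95% confidence intervals from limma, in control (blue) and B-CKO (orange) cells; filled points passed an adjusted p of 0.05, and black bars give the control change from D1 to D2. Genes are ordered by the control change (x axis), with names for some of them. Most genes lie above 0, *Rps27* lies near -1 in both genotypes, and *Rps2* has the highest change.

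The second step of culture added little. Of 88 members tested between D1 and D2 in control cells, 11 were higher and 2 were lower, where 20.1% of all genes tested were higher and 24.8% were lower, and the canonical median was 0.08. Under the TPM scale 6 canonical genes were higher and 1 was lower, in place of 10 and 0. Among the genes called, the largest rise was that of *Rpl22l1*, the paralogue of the RNA-binding 60S protein *Rpl22*. Its control libraries held 200, 226 and 224 FPKM at D0, 240, 251 and 242 FPKM at D1 and 392, 395 and 415 FPKM at D2. It did not pass the test from D0 to D1 (0.17 ± 0.06, adjusted p = 0.059) and rose by 0.71 ± 0.04 from D1 to D2 (adjusted p = 3.9e-05). *Rpl22* itself rose by 0.37 ± 0.06 from D0 to D1 and had a change of -0.01 ± 0.06 from D1 to D2. The ratio of *Rpl22l1* to *Rpl22* therefore lay between 1.03 and 1.15 at D1 and between 1.72 and 1.90 at D2.

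The other 10 genes higher at D2 than at D1 in control cells were *Rps20*, *Rps3*, *Rplp0*, *Rpl28*, *Rps16*, *Rpl41*, *Rpl5*, *Rpsa*, *Rps19* and *Rps26*, with log2 changes between 0.18 and 0.30. *Rps20* had 241, 263 and 257 FPKM at D1 and 316, 287 and 323 FPKM at D2 (0.28 ± 0.06), *Rps3*, which also takes part in DNA repair, rose by 0.23 ± 0.05, and *Rplp0* rose by 0.30 ± 0.07. *Rpl7l1* and *Rps19bp1* fell by 0.49 and 0.69 on the log2 scale. Without the replicate 1 libraries 3 members were called and without the replicate 3 libraries 4, while 27 were called when genes averaging under 1 FPKM were left out.

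Across both days, from D0 to D2, 64 of 89 control members were higher and 1, *Rps27*, was lower, where 26.5% of all genes tested were higher and 30.3% lower. On the TPM scale 40 canonical genes were higher and 5 were lower, in place of 59 and 1, and the canonical median was 0.20 in place of 0.41. *Rps27l* stood 2.64 ± 0.11 above D0, *Rps2* 1.34 ± 0.08, *Rpl41* 1.13 ± 0.09, *Rplp0* 1.01 ± 0.09, *Rps26* 0.99 ± 0.07, *Rpl36al* 0.97 ± 0.06 and *Rpl14* 0.86 ± 0.06, all on the log2 scale. *Rps27* stood at -0.85 ± 0.10. *Rps24* was again below D0 in every library, at -0.13 ± 0.07, and did not pass the test (adjusted p = 0.18). These D2 values share their libraries with the steps above.

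In B-CKO cells the libraries were followed in the same way. From D0 to D1, 48 of 89 members were higher and 2 were lower, where 27.5% of all genes tested were higher and 32.3% lower, and the canonical median was 0.29. On the TPM scale 31 canonical genes were higher and 8 were lower, in place of 43 and 2. The control and B-CKO courses share no libraries, and 46 genes were called higher in both, which is 82.1% of the control calls and 95.8% of the B-CKO calls. Over the 77 canonical genes the log2 changes of the genotypes had a correlation of 0.99, across genes, which are not independent replicates. *Rps27l* rose by 2.69 ± 0.05, from 27.9, 24.9 and 26.8 FPKM to 177, 177 and 175 FPKM, *Rpl7l1* by 1.45 ± 0.07, *Rps19bp1* by 1.65 ± 0.09, *Rps2* by 1.16 ± 0.09 and *Rpl15* by 0.85 ± 0.06. *Rps27* had 3140, 3114 and 3331 FPKM at D0 and 1652, 1688 and 1574 FPKM at D1 and fell by 0.96 on the log2 scale. *Rpl17*, near the exit tunnel, and *Rps24* had all D1 libraries below D0 and did not pass the test (-0.13 ± 0.08 and -0.13 ± 0.07). The near-silent *Rps23rg1* was among the genes called higher, at 0 FPKM in all 3 libraries at D0 and 0.05 FPKM in all 3 at D1.

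From D1 to D2 in B-CKO cells, 9 of 88 members were higher and 2 were lower, where 21.7% of all genes tested were higher and 24% lower. With the replicate block 4 members were called in place of 11. *Rpl22l1* again had the largest rise among the genes called, from 272, 268 and 285 FPKM to 475, 398 and 522 FPKM (0.75 ± 0.10, adjusted p = 0.00083), and *Rpl5*, *Rps20*, *Rpl28* and *Rplp0* were called in both genotypes as well. *Rpl13a*, *Rpl39*, *Rps28* and the barely detected *Rpl3l* were called higher in B-CKO cells and not in control cells, which does not show that the genotypes differ. *Rpl7l1* and *Rps19bp1* fell by 0.52 and 0.98 on the log2 scale. Without the replicate 1 or replicate 3 libraries 5 and 4 members were called, and 23 when genes averaging under 1 FPKM were left out. On the TPM scale 10 canonical genes were higher and 2 lower, in place of 7 and 0. Between D0 and D2, 53 of 89 members were higher and 1, *Rps27* (-0.83 ± 0.13), was lower, where 27% of all genes tested were higher and 30.7% lower. On the TPM scale 34 canonical genes were higher and 2 were lower over this span, in place of 48 and 1. Without the replicate 1 libraries 31 members were called in place of 54.

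**Figure D3:**
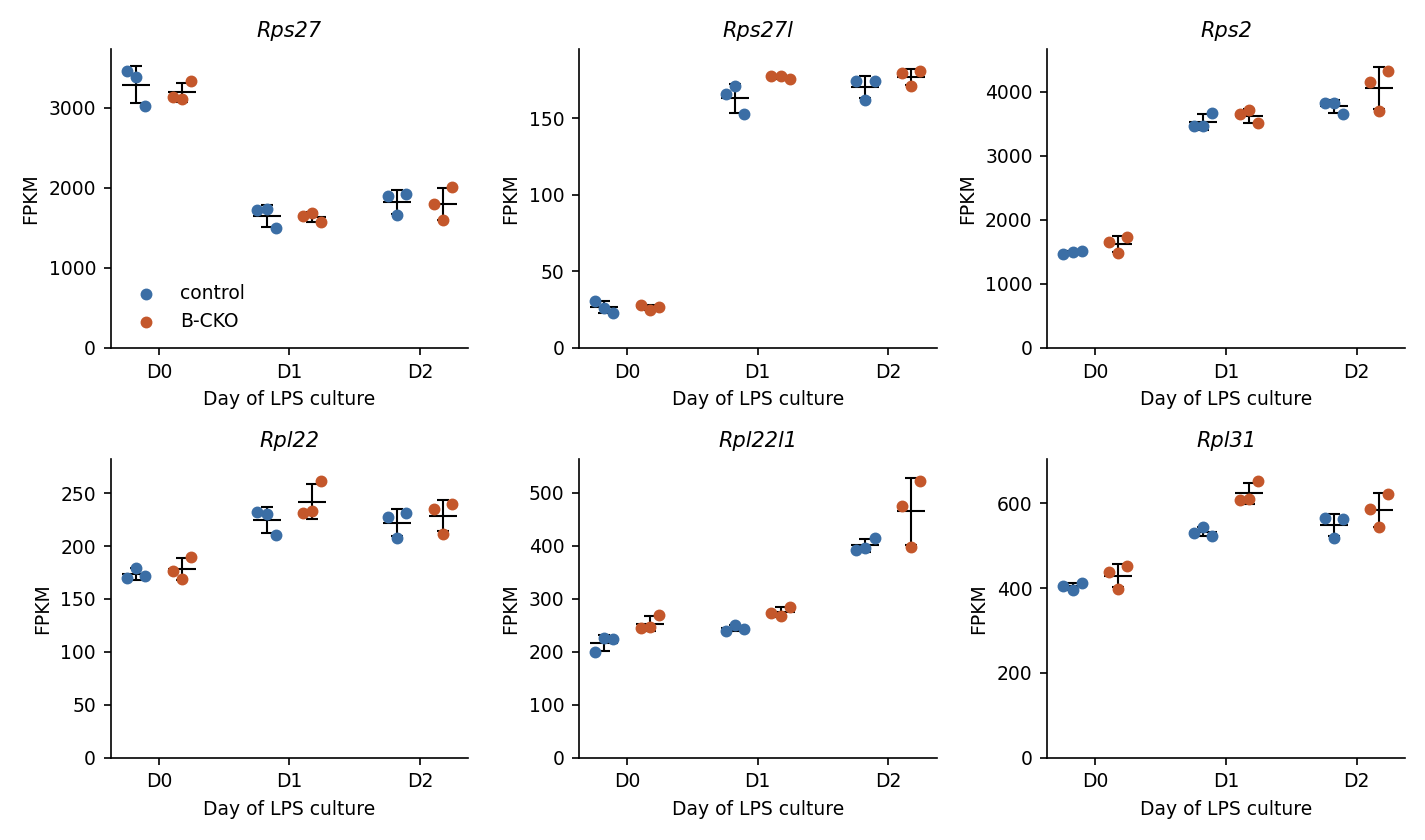
FPKM (y axis, from 0) of 6 members in every library by day of LPS culture (x axis), in control (blue) and B-CKO (orange) cells, with the mean ± SD of 3 libraries. *Rps27* falls and *Rps27l* and *Rps2* rise between D0 and D1, and *Rpl22l1* rises between D1 and D2 while *Rpl22* does not.

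The rise was set beside the other parts of ribosome production, each described by its counts and median; no difference between lists was tested. Over all genes tested in control cells, 26.7% were higher and 30.7% lower at D1 against D0 (median log2 change -0.022), and 20.1% were higher and 24.8% lower at D2 against D1 (median -0.0047), while 27.5% were higher and 32.3% lower at D1 against D0 in B-CKO cells. The 78 mitochondrial ribosomal protein genes, which build the separate ribosome of the mitochondrion, were counted first: 77 of 78 were higher at D1 in control cells with a median log2 change of 1.31, and 78 of 78 in B-CKO cells with a median of 1.36. *Mrpl12*, which also binds mitochondrial RNA polymerase, went from 35.7 ± 4.2 to 185 ± 2.2 FPKM (SD, n = 3) in control cells. From D1 to D2 43 of them were lower and 4 were higher in control cells, with a median of -0.21. All 16 ribosome assembly genes tested, which include rRNA transcription and processing factors, were higher at D1 (median 1.70) and all 16 lower at D2 than at D1 (median -0.70). Among them *Nolc1*, a nucleolar scaffold protein, went from 36.8 ± 2.3 to 138 ± 3.9 and then to 74.9 ± 3.6 FPKM, and *Fbl*, the rRNA methyltransferase, from 426 ± 11.5 FPKM at D1 to 259 ± 10.8 FPKM at D2. In the same step of control cells no canonical ribosomal protein gene was called lower.

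Of 7 dedicated ribosomal protein chaperones, 5 were higher at D1 in control cells (median 0.79), where 26.7% of all genes were, and 6 were lower at D2 than at D1 (median -0.67), where 24.8% of all genes were. *Grwd1*, the chaperone of Rpl3, went from 18.2 ± 2.5 to 71.7 ± 1.8 FPKM at D1 and changed by -1.02 ± 0.074 (log2, SE) from D1 to D2. Of 21 other mRNAs known to carry a TOP element, mainly elongation and initiation factors, 16 were higher and 3 were lower at D1 (median 0.56), led by *Npm1*, the nucleolar phosphoprotein, at 416 ± 39.6 and 1888 ± 104 FPKM. The 3 lower ones were *Tpt1*, the translationally controlled tumour protein, with a log2 change of -0.70, *Fau*, whose ribosomal part belongs to the 40S subunit, with -0.47 (limma adjusted p = 0.0044), and *Eif3f*, of the initiation factor eIF3, with -0.25. In B-CKO cells *Fau* changed by -0.49 (limma adjusted p = 0.0018). From D1 to D2 *Fau* rose by 0.37 in control and by 0.44 in B-CKO cells. Among 8 genes that govern TOP mRNAs, 3 were higher and 1 was lower at D1, beside 26.7% and 30.7% of all genes, so the counts of so short a list are not read as a result. *Larp1* went from 44.7 ± 5.5 to 95.7 ± 3.1 FPKM and then to 61.9 ± 3.2 FPKM at D2.

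**Figure D4:**
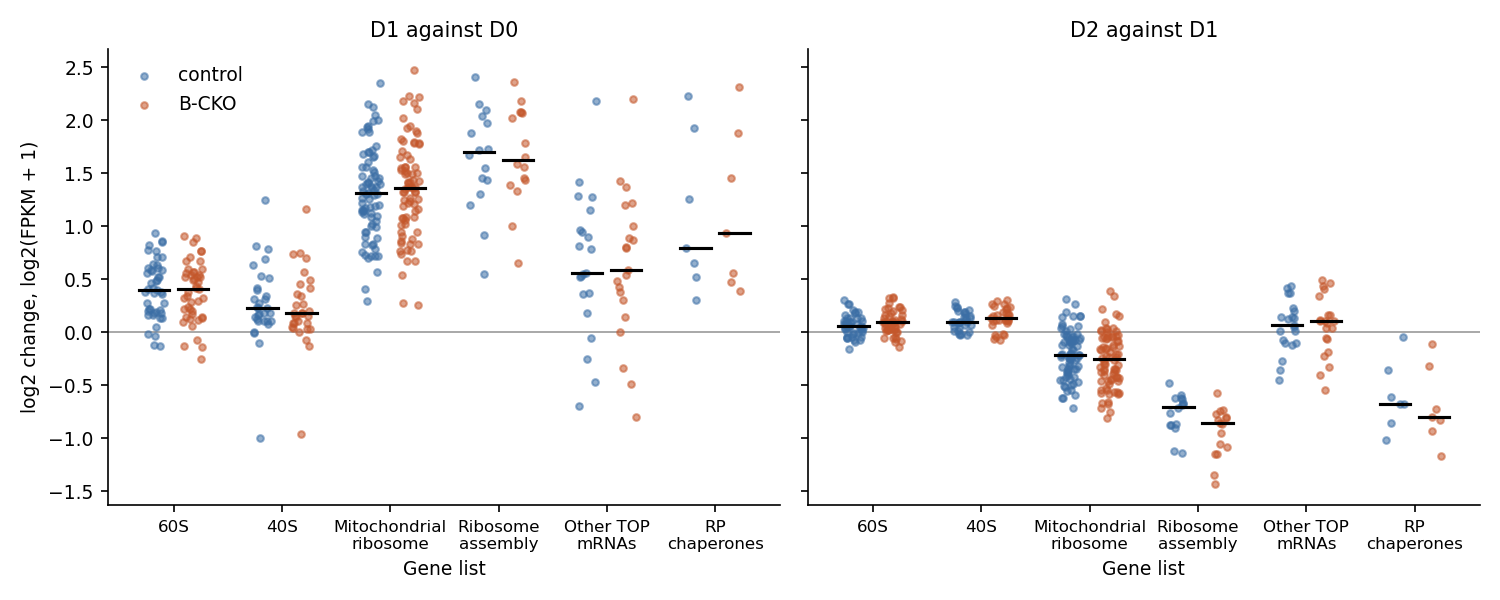
Log2 change of each gene in the 60S and 40S lists and in 4 other lists (x axis) between D1 and D0 (left) and between D2 and D1 (right), in control (blue) and B-CKO (orange) cells; black lines are medians. In the first step the control medians are 0.40 and 0.23 for the 60S and 40S genes, 1.31 for the mitochondrial ribosome and 1.70 for ribosome assembly, and in the second the assembly genes all lie below 0.

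The canonical genes were also divided by their annotated start. The 30 genes with a C and T run near the start, as shown for *Rps6* and *Rpl15*, had a median change of 0.38 at D1 in control cells (22 higher, 1 lower) and the 27 without one had a median of 0.23 (16 higher, 0 lower). *Rps2*, with the largest rise among canonical genes, had no such run near its annotated start and *Rps27*, the gene that fell, had one. Such a run is not in itself a TOP element, since 23.7% of all genes had one. A gene without one near its annotated start is not thereby shown to lack a TOP element. The 24 genes with the ETS core had a median of 0.39 and the 33 without it 0.22. The 6 genes with the E-box had a median of 0.19 and the 51 without it 0.37, and the 5 genes with the YY1 core, of which *Rps27* is 1, had a median of -0.0033 and the 52 without it 0.36. These splits are descriptions and were not tested.

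The next question was whether loss of *Zbtb24* changed the ribosomal protein genes. No member passed the test at D0, D1 or D2 with limma. Of all genes tested, 0% of 15641 were called at D0, 0.0993% at D1 and 0.046% at D2. An unadjusted p under 0.05 was held at D0 by 3 of 88 members, where 2% of all genes tested had one, at D1 by 9 of 88 members, where 16.3% of all genes had one, and at D2 by 0 of 88 members, where 7.71% had one. Leaving out 1 library gave 1 called member at D0 (without control replicate 1) and 1 at D1 (without B-CKO replicate 1). The differences of single genes were small. Over the 77 canonical genes the log2 difference of B-CKO from control ran from -0.12 to 0.18 at D0, from -0.13 to 0.22 at D1 and from -0.02 to 0.17 at D2. For *Rps2* the 95% interval of the difference was -0.14 to 0.38 at D0, -0.11 to 0.18 at D1 and -0.17 to 0.37 at D2, and for *Rps6* it was -0.16 to 0.35, -0.04 to 0.13 and -0.18 to 0.28, so these data leave room for differences of that size.

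Most canonical genes nevertheless lay slightly higher in B-CKO cells. The log2 difference was above 0 for 72, 60 and 73 of 77 genes at D0, D1 and D2, with medians of 0.07, 0.04 and 0.07 where the medians of all genes tested were near 0. On the TPM scale the numbers above 0 were 72, 53 and 69. The genes of 1 library move together, so these counts are not independent evidence, and B-CKO replicate 3 held the highest share at D0 and at D2. At D0, 22 members had all B-CKO libraries above all control libraries and 1 had all of them below, where 1.92% and 1.94% of all genes tested did. At D1 these numbers were 16 and 2 members, where 8.43% and 11.7% of all genes tested did. At D2 they were 2 and 0 members, *Rpl7* (0.10 ± 0.07) and *Rps25* (0.07 ± 0.07), where 4.89% and 6.24% of all genes tested did. The erythroid markers in B-CKO replicate 3 at D0 stood at 71.1 FPKM, and their part was not tested.

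**Figure D5:**
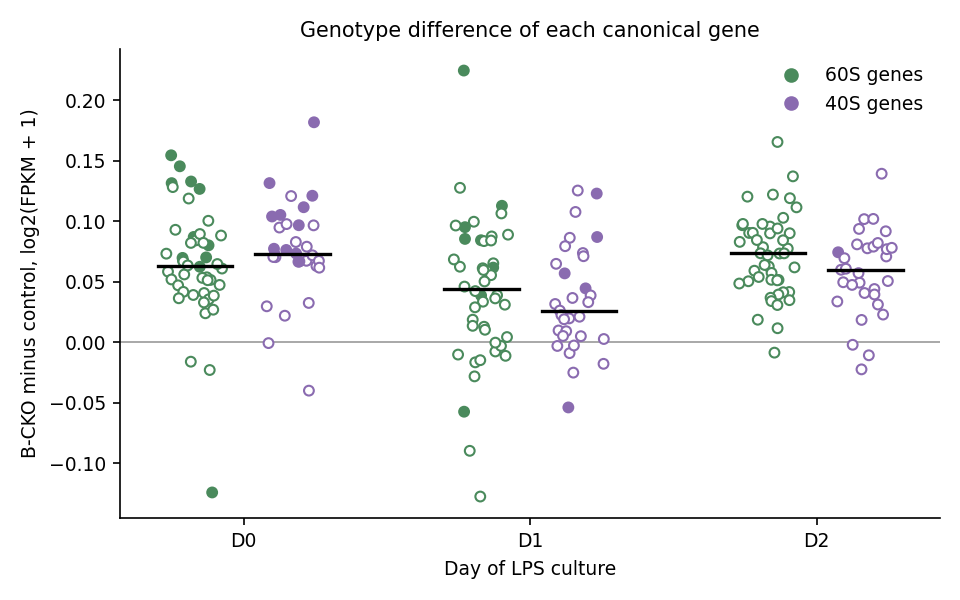
Log2 difference between B-CKO and control cells for each of the 77 canonical genes (y axis) by day (x axis), with 60S genes in green and 40S genes in purple; filled points mark genes whose genotypes do not overlap and black lines are the medians of each subunit. The points lie between -0.13 and 0.22, and most lie above 0 on each day.

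*Rpl22l1* was among the members whose genotypes did not overlap at D0. The B-CKO libraries held 244, 247 and 269 FPKM at D0 against 200, 226 and 224 FPKM in control cells, and 272, 268 and 285 FPKM at D1 against 240, 251 and 242 FPKM. The genotypes did not overlap on these days, and at D2 the B-CKO value of replicate 2, 398 FPKM, fell within the control range. The log2 difference was 0.22 ± 0.08 at D0 (adjusted p = 1), 0.17 ± 0.03 at D1 (adjusted p = 0.098) and 0.20 ± 0.10 at D2 (adjusted p = 0.69). *Rps20* was also higher without overlap at D0 and D1, by 0.18 ± 0.07 and 0.12 ± 0.04 (adjusted p = 1 and 0.20). *Rpl37* and *Rpl27*, both of the 60S subunit, had differences of 0.15 ± 0.08 and 0.15 ± 0.09 at D0, and *Rpl36* was the member with all B-CKO libraries below, at 624, 640 and 623 FPKM against 700, 716 and 642 FPKM.

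At D1 the smallest p among the members belonged to *Rpl31*, a 60S protein near the exit tunnel, with 607, 610 and 652 FPKM in B-CKO cells against 530, 545 and 523 FPKM in control cells (0.22 ± 0.04, adjusted p = 0.083). Its copy *Rpl31-ps12* stood at 652 ± 39.7 FPKM in the controls against 631 ± 28.6 FPKM, and the log2 difference of the sum of both was 0.08 (adjusted p = 0.41). *Rps19bp1* had 50.4, 51.1 and 53.7 FPKM in B-CKO against 46.0, 44.6 and 47.4 FPKM in control cells (0.17 ± 0.03, adjusted p = 0.11). When genes averaging under 1 FPKM were left out, *Rpl31*, *Rpl22l1* and *Rps19bp1* passed at D1, with adjusted p of 0.016, 0.032 and 0.047. *Rps4x* and *Rpl13a* lay below the control range at D1, by -0.05 ± 0.04 and -0.06 ± 0.05, and neither passed the test. The difference of the near-silent *Rps23rg1* at D1 rested on 0.05 FPKM in each B-CKO library against 0, and it did not pass (adjusted p = 0.099).

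The change over time was also compared between genotypes directly, as an interaction. For D1 against D0, 0% of 16182 genes tested were called with limma, and for D2 against D1, 0% of 15844. Of the members, 2 had an unadjusted p under 0.05 in each, *Rps23rg1* and *Rps27rt* in the first, where 2.89% of all genes tested had one, and *Rps19bp1* and *Rps23rg1* in the second, where 7.31% had one. The change of *Rps19bp1* from D1 to D2 was lower in B-CKO cells, by a log2 difference of -0.28 ± 0.08, which did not pass the test (limma adjusted p = 0.55). The interaction of *Rps27* was 0.03 for the first step with a 95% interval of -0.24 to 0.30, and that of *Rps2* was -0.08 with an interval of -0.32 to 0.15.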

How the data were processed

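RNA of 18 libraries was analysed from 1 deposited table of FPKM values with 2 decimals. The authors made these FPKM values; the study's methods name bowtie2 against mm10, Cufflinks and RSEM, and the labels' processing notes name BWA, Bowtie2, RSEM and DESeq2 without versions. The sequencer differs between the labels and the methods. Fragment counts are not used here, so the depth in fragments is unknown. The spacing of low values put relative depth at 0.877 to 0.923 at D0 and at 1.01 to 1.07 later. This estimate rests on 139 of 441 genes considered, those whose low values fell in whole steps. Gene IDs were matched to RefSeq symbols (GRCm38.p6) for 16512 of 16545 rows. Some genes are not reported here by name. All members and lists were chosen with earlier results of these data known.

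FPKM values were tested as log2(FPKM + 1) with limma 3.58.1 in R 4.3.3 (lmFit, eBayes with trend), on the compared groups only, over genes above 0 FPKM in any compared library, with Benjamini-Hochberg adjustment over all genes and a threshold of 0.05. Fold changes are on that scale and understate low genes. The method was tested on simulated data. The study's count test was not used because the values are not counts. Replicates are separate mice within a group.

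Named genes were those of a role list, the 5 highest and 5 lowest members by mean FPKM, members under 1 FPKM, all non-canonical names, and up to 4 members per direction and comparison with the smallest p whose groups did not overlap. *Rpl7a*, *Rps15a*, *Rps16*, *Rps28*, *Fau*, *Tpt1* and *Eif3f* were named after their values were seen. Same-numbered control and B-CKO libraries deviated together at D0 (correlations 0.854, 0.468 and 0.789) and more weakly at D1 (0.104, 0.200 and 0.091). Same-numbered B-CKO libraries did so weakly at D1 and D2 (0.126, 0.183 and 0.117) and at D0 and D1 (0.051, 0.055 and 0.044). In each of these comparisons 3 of 3 libraries correlated best with their own number. A paired fit with the replicate number as a block was therefore an alternative. In the other comparisons 1 or 2 of 3 libraries did so, and the number was taken as only a name. Other alternatives were a pseudocount of 0.1, a minimum mean of 1 FPKM, TPM, median-ratio and non-ribosomal scaling, a fit of all 18 libraries, and leaving out each replicate. Python 3.11.15 with pandas 2.3.3, numpy 2.4.6 and matplotlib 3.10.9 was used for tables and figures.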

Additional observations from a re-analysis of the deposited data

How the results depend on the processing

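Of 130 recomputed counts of called members 113 stayed within 1.5 times the main count, or at 0 where the main count was 0. The main count was 0 in every comparison of genotypes and in the interactions, where an unchanged count means only that no member was called. Most counts that moved were those from D1 to D2. Of 1600 recomputed values of named genes 1445 kept direction and side of the threshold, 77 lost the threshold, 51 gained it and 27 changed sign. The cause of the changes was not tested. With genes averaging under 1 FPKM left out, the counts were 27 (control) and 23 (B-CKO) from D1 to D2, in place of 13 and 11, and 3 for B-CKO against control at D1, in place of 0. With all 18 libraries in 1 fit the B-CKO count from D1 to D2 was 21. With the replicate block, a paired fit by replicate number, the counts from D1 to D2 were 6 (control) and 4 (B-CKO), and with the block and the filter together, an alternative chosen after seeing the data, they were 22 in both, with 3 for the genotypes at D1. In control cells the numbers from D1 to D2 are only names, since the correlations of same-numbered libraries were -0.068, 0.147 and 0.078 and 2 of 3 libraries correlated best with their own number; in B-CKO cells 3 of 3 did. The block moved no other count of calls by more than 1.5 times.

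Leaving out 1 replicate gave 3 to 12 calls from D1 to D2 in control cells, 4 to 11 in B-CKO cells, 31 to 47 from D0 to D2 in B-CKO cells, and 0 to 1 for the genotypes at D0, for the genotypes at D1 and for the interaction of the first step. The signs that changed belonged to log2 changes near 0. On the TPM scale they were *Rps19* (-0.064 in control and -0.16 in B-CKO cells), *Rpl22l1* (-0.046), *Rpl39* (-0.025) and *Rps4x* (-0.017, the last 3 in B-CKO cells) from D0 to D1, and *Rps4x* in control cells (-0.00028) and *Rpl11* (-0.010), *Rps27l* (-0.053) and *Rpl36a* (-0.023) in B-CKO cells from D1 to D2. Scaled to the sum of the other genes, they were *Rps19* (-0.0084 in control and -0.11 in B-CKO cells from D0 to D1) and *Rps27l* (-0.030 in B-CKO cells from D1 to D2). With median-ratio scaling they were *Rpl13a* (0.038 from D0 to D1), *Rpl22* (0.026) and *Rps12* (0.024, both from D1 to D2), all in control cells. Summed with *Rpl31-ps12*, chosen after seeing the data, *Rpl31* was at 0.057 from D1 to D2 in B-CKO cells and at -0.0047 in the interaction of the first step. Over the fits without 1 replicate, control values ran from -0.077 to 0.0044 for *Rpl13a* from D0 to D1, and from D1 to D2 from -0.090 to 0.053 for *Rpl22*, from -0.00066 to 0.13 for *Rps27l*, from -0.036 to 0.23 for *Rpl10*, from -0.14 to 0.018 for *Rpl36a* and from -0.085 to 0.038 for *Rps12*. B-CKO values ran from -0.021 to 0.023 for *Rps19* from D0 to D1, and from D1 to D2 from -0.019 to 0.029 for *Rps27l* and from -0.0084 to 0.10 for *Rpl36a*. Depth in fragments is unknown, so no counting error is given for single values.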
